A study of Mus musculus with 163 samples.

Results

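Control outer hair cells (OHCs) of the mouse cochlea were compared with control inner hair cells (IHCs) at postnatal day 7, across all genes. The members were taken from the cell type in the sample titles, with no measured value: 43 OHCs and 38 IHCs, which are 81 of the 163 single cells in the series. All 81 cells carried the genotype Atoh1P2A-Tdtomato/+, in which 1 allele of the hair cell factor Atoh1 also encodes a red fluorescent reporter, and the study describes Atoh1 expression as intact in these mice and both cell types as Tdtomato+. The other 82 cells came from Atoh1P2A-Cre/P2A-Tdtomato; Rbm24flox/flox mice, in which Cre made from the Atoh1 locus deletes Rbm24, an RNA-binding protein, in cells that express Atoh1. These mutant cells appear only where control values are set beside them.

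Each cell was picked by hand after digestion with papain, DNase I, a protease and dispase and after trituration, and it gave 1 full-length Smart-Seq HT library. The labels name no animal and do not say how inner and outer cells were told apart at picking. Each cell type is therefore 1 group of cells without replicate animals. No p-value is given, and a difference is described by its size, by the spread over cells and by whether the cells of the 2 types overlap.

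OHCs and IHCs share the mechanosensitive hair bundle but differ in task. OHCs change length with voltage through the membrane motor prestin, encoded by Slc26a5, and amplify sound. IHCs release glutamate from ribbon synapses onto the auditory nerve, and load their vesicles with the transporter VGLUT3, encoded by Slc17a8. In the first postnatal week neither type is mature, and both receive cholinergic input from the brainstem through a receptor built of the alpha9 and alpha10 subunits.

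The libraries of the 2 types were of similar depth. Total counts per cell were 5.47e+06 to 1.44e+07 in OHCs (median 9.09e+06) and 6.13e+06 to 1.37e+07 in IHCs (median 8.67e+06). The median OHC had 9774 detected genes and the median IHC 10209. With every cell thinned to 5000000 counts, the medians were 9241 and 9602. Mitochondrially encoded genes held a median of 6.04% of the counts in OHCs and 7.52% in IHCs. The summed level of 24 supporting cell genes was 30.1 to 1869 CPM, counts scaled to a common library total, in OHCs (median 260) and 120 to 2413 in IHCs (median 298). Single members leaned to the IHCs, with a median log2 ratio of -1.15 over the 18 at 1 CPM or more. Those at least 2-fold higher were 3 (16.7%) in OHCs and 10 (55.6%) in IHCs, beside 15.3% and 13.4% of all genes. That of 8 immune genes had medians of 106 and 125 CPM, nearly all of it C1qb, at 109 CPM in OHCs and 117 CPM in IHCs, while C1qc and Ptprc were under 0.1 CPM in both. That of 10 neuron genes had medians of 402 and 723 CPM, mostly Snap25, Nefl and Nefm, and Prph and Eomes had no count in either type. Erythroid, endothelial and glia lists had a median of 0 in both types. The part of RNA from other cells in the differences below was not tested.

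The cells also fell into sets that no label names. Transcripts of the Y chromosome without Xist were present in 32 OHCs and 26 IHCs, and Xist in 11 OHCs and 12 IHCs, 1 of these OHCs with both. The predicted gene Gm15772 was at 3.68 to 15.7 CPM in 25 OHCs and at 61.4 to 768 CPM in 18, and IHCs split into 23 at 2.86 to 18.5 CPM and 15 at 94.3 to 539 CPM. Every cell with Xist was in the high set, which also held 7 OHCs and 3 IHCs without Xist. The 18 high OHCs were those numbered 1 to 18 in the titles, and the 25 low OHCs were those numbered from 19 on. The labels do not say what this order stands for, and its part in the differences between the sets was not tested. Both types were drawn from each of these 4 sets, so values within them are given below where they bear on a result.

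The 4 genes that mark the labels followed them in nearly all cells. Slc26a5 (chr5:21810655-21865604, minus strand, GRCm38) was at 0.156 CPM in the lowest OHC, 344 in the median and 1169 in the highest, and at 0 to 5.96 CPM in the IHCs (median 0.371). It reached 10 CPM in 41 of 43 OHCs, or 95.3% (exact binomial 95% interval 84.2 to 99.4), and in 0 of 38 IHCs, which allows a share of up to 7.89%. Ocm (chr5:144019804-144026670, minus strand) encodes the calcium buffer oncomodulin and was at 7.64, 3162 and 23264 CPM in the lowest, median and highest OHC, against 0.331, 26.2 and 159 CPM in the IHCs. Ocm was thus also above 10 CPM in 27 of 38 IHCs, at a level far below that of OHCs: the log2 ratio of OHC over IHC was 7.18 (95% interval 7.15 to 7.20).

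Slc17a8 (chr10:89574020-89621253, minus strand) was at 66.0 to 630 CPM in the IHCs (median 210) and at 0 to 77.1 CPM in the OHCs (median 0.163), with a log2 ratio of -5.35 (-5.41 to -5.30). Tbx2 (chr11:85832551-85841948, plus strand), a T-box factor known for its role in IHC fate, was at 10.4 to 619 CPM in the IHCs (median 160) and at 0 to 9.49 CPM in the OHCs. The Tbx2 values of the types did not overlap. Here and below a ratio is the log2 of CPM from the counts summed over all OHCs against all IHCs, and its interval covers counting error only. The OHC labelled replicate 1 lacked both OHC genes, with Slc26a5 at 0.156 CPM and Ocm at 7.64 CPM, and it also had no Ikzf2 count and the lowest Calb1 of any OHC (1257 CPM). The OHC labelled replicate 11 had 5.35 CPM of Slc26a5, 193 CPM of Ocm and 9.49 CPM of Tbx2. Both stayed in the main values. Without them the log2 ratio was -9.17 for Tbx2 and -7.21 in place of -6.46 for the urea transporter gene Slc14a1. It was -3.05 in place of -2.28 for Psat1 and 8.11 in place of 9.06 for Bcl11b. The other genes named in the text as 2-fold apart moved by less than 1.5-fold.

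**Figure D1:**
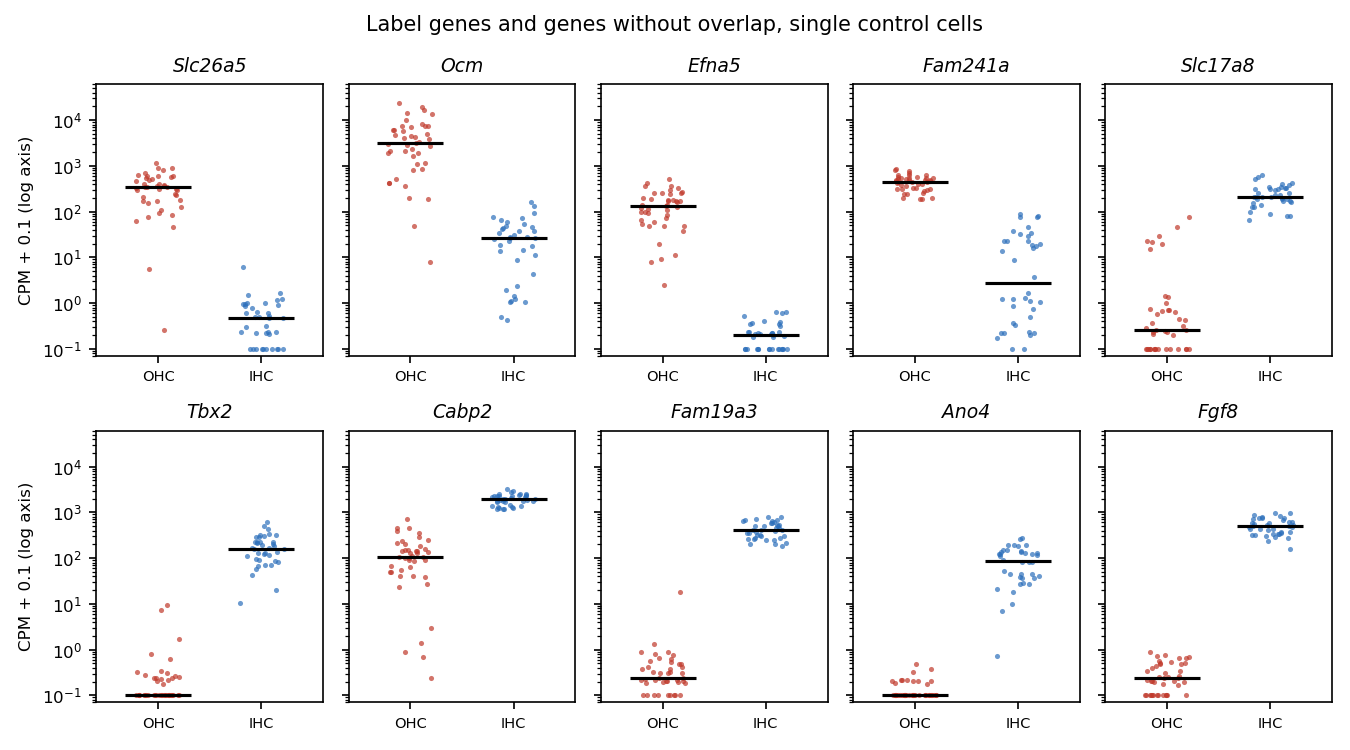
Level in every control cell of the label genes and of the 7 genes whose cells did not overlap between types, on a log axis of CPM + 0.1. Each point is 1 cell (43 outer, 38 inner), the bar is the median of the cells, and the outer cells lie above the inner cells for Efna5 and Fam241a and below them for Tbx2, Cabp2, Fam19a3, Ano4 and Fgf8.

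The sequences before the start of 3 of these genes are shown because their levels mark the types and their RefSeq start lies within 4 bases of the annotated gene start. Each is the 250 bases upstream of the start, 5′ to 3′ on the gene's strand, from RefSeq on GRCm38.p6. Capitals mark E-boxes, CANNTG on either strand, the short motif bound by bHLH factors such as ATOH1.
Slc26a5, chr5:21865605-21865854, minus strand: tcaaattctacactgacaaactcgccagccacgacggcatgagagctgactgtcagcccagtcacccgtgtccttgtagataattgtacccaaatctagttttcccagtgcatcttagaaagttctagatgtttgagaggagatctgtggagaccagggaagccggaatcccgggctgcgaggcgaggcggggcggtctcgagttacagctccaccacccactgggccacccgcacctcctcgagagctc
Efna5, chr17:62881318-62881567, minus strand: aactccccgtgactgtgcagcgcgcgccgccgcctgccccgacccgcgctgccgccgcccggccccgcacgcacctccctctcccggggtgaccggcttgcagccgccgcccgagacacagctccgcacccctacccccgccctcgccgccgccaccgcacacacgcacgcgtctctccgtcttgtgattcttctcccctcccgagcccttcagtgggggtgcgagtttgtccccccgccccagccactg
Slc17a8, chr10:89621250-89621499, minus strand: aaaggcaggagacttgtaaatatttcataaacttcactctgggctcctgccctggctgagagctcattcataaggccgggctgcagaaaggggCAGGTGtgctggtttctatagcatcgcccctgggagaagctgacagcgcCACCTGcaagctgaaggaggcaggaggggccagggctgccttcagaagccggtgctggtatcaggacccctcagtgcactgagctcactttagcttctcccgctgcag
The Slc17a8 window held 2 E-boxes and the windows of Slc26a5 and Efna5 held 0. Of the 30 genes with the largest ratios described below, 24 were matched in the RefSeq table. An E-box lay in the window of 7 of 14 OHC genes and 8 of 10 IHC genes, beside 66.2% of all 32851 windows of that length. CACGTG, the E-box form bound by BHLHE40, lay in 2 of the 14 OHC windows (Bmp6 and Robo2) and in 0 of the 10 IHC windows, beside 6.02% of all windows, and each such match is also a match to CANNTG.

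Among 14445 genes with a mean of at least 1 CPM over the 2 types, 2204 (15.3%) were at least 2-fold higher in OHCs and 1934 (13.4%) at least 2-fold higher in IHCs. At 4-fold the counts were 1000 (6.92%) and 880 (6.09%). The median log2 ratio over all these genes was 0.04 (0.02 to 0.05), and the central 90% lay between -2.34 and 2.63. Separation of single cells was far rarer than a 2-fold ratio of sums. Of the 1634 pairs of 1 OHC and 1 IHC, the OHC was the higher in at least 95% for 32 genes (0.222%) and the IHC in at least 95% for 30 genes (0.208%). Only 2 genes (0.0138%) had every OHC above every IHC, and 5 (0.0346%) had every IHC above every OHC, and these 7 are named because of that.

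The 2 genes without overlap on the OHC side were Efna5 and Fam241a. Efna5 encodes ephrin-A5, a membrane-bound ligand of Eph receptors, and was at 2.36, 135 and 512 CPM in the lowest, median and highest OHC and at most 0.553 CPM in any IHC. Its log2 ratio was 10.21 (9.79 to 10.66). Fam241a was at 185, 443 and 864 CPM in the OHCs and at 0, 2.61 and 87.9 CPM in the IHCs (log2 ratio 4.72). On the IHC side they were Tbx2, Cabp2, Fam19a3, Ano4 and Fgf8. Fgf8, a secreted fibroblast growth factor that patterns the neighbouring pillar cells, was at 154, 497 and 978 CPM in the IHCs and at most 0.795 CPM in any OHC (log2 ratio -11.31). Fam19a3, a secreted chemokine-like protein gene, was at 185, 407 and 793 CPM in the IHCs and at 0, 0.138 and 18.1 CPM in the OHCs.

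**Figure D2:**
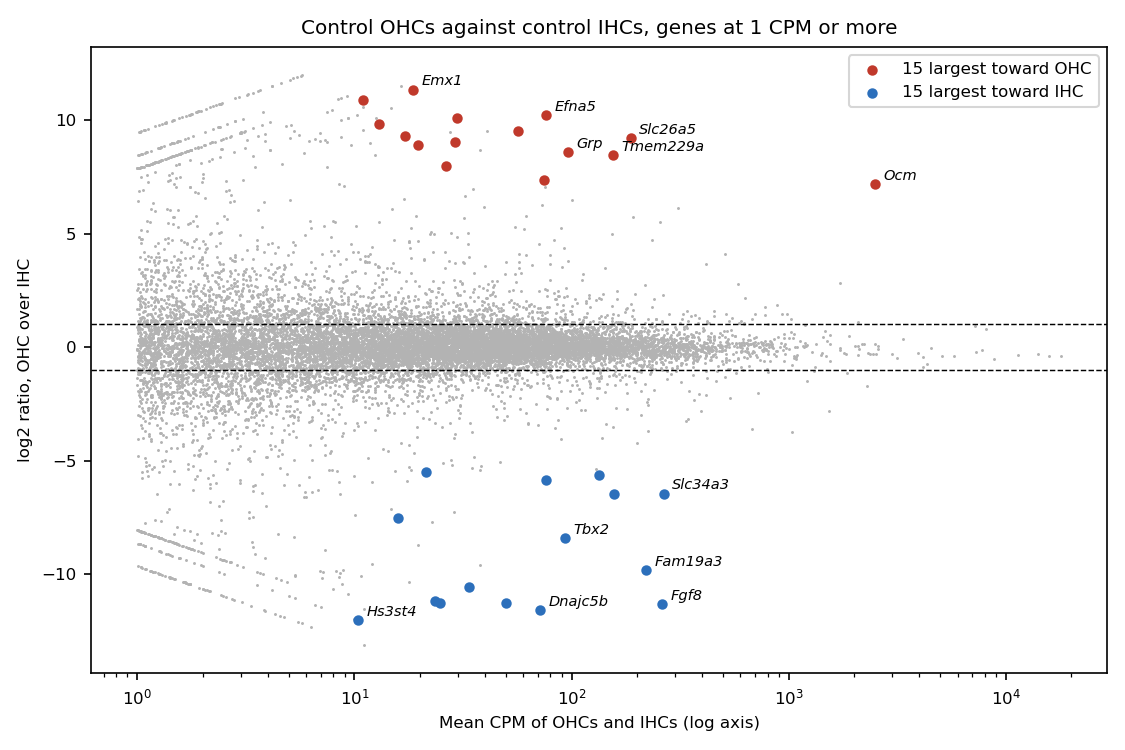
Log2 ratio of outer over inner hair cells against the mean CPM of the 2 types (log axis) for the 14445 genes at 1 CPM or more, with the 15 largest each way that pass the rule on level and cells coloured and some labelled. Dashed lines mark 2-fold; 2204 genes lie on or above the upper line and 1934 on or below the lower one.

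The 15 protein-coding genes with the largest ratio toward OHCs, among those at 20 CPM or more in OHCs and at 10 CPM or more in at least 50% of them, were Emx1, Cacng2, Efna5, Robo2, Prcd, Zfp503, Calca, Slc26a5, Bmp6, Ephx4, Grp, Tmem229a, Slc45a3, 4930558C23Rik and Ocm. Their log2 ratios ran from 11.34 for Emx1 to 7.18 for Ocm. Several encode signals that leave the cell. Grp, the precursor of gastrin-releasing peptide, was at 8.21, 164 and 1054 CPM in the OHCs and at 0, 0 and 16.7 CPM in the IHCs. Calca, the precursor of calcitonin and CGRP, reached 10 CPM in 25 OHCs and 0 IHCs and ran from 0 to 138 CPM over the OHCs. Bmp6, a bone morphogenetic protein, reached 10 CPM in 26 OHCs and 0 IHCs, so that for both genes OHCs at 0 overlapped with the IHCs. The zinc-finger factor gene Zfp503 was at 0, 107 and 338 CPM in the OHCs and at most 1.88 CPM in an IHC. Tmem229a, of unknown function, was at 0.468, 265 and 908 CPM in the OHCs and at 0, 0.249 and 19.1 CPM in the IHCs.

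The 15 with the largest ratio toward IHCs were Hs3st4, Dnajc5b, Fgf8, Ano4, Ang4, Brip1, Gcnt1, Fam19a3, Tbx2, Tle2, Slc14a1, Slc34a3, Ppm1j, Abhd12b and Tex33. Their log2 ratios ran from -12.02 for Hs3st4 to -5.51 for Tex33. Membrane transport genes stood high in level. Slc34a3, a sodium-phosphate cotransporter gene best known from kidney, was at 0, 561 and 1373 CPM in the IHCs and at 0, 0.127 and 94.7 CPM in the OHCs. Slc14a1, a urea transporter gene, was at 12.5, 286 and 815 CPM in the IHCs and at 0, 0.106 and 95.1 CPM in the OHCs. In the IHCs 36 of 38 reached 10 CPM of Slc34a3 and 38 of 38 of Slc14a1, against 3 and 4 of 43 OHCs. Brip1, a DNA helicase gene, reached 10 CPM in 27 IHCs and 0 OHCs. Gcnt1, a glycosyltransferase gene of mucin-type glycans, did so in 34 IHCs and 0 OHCs.

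Receptors of the cholinergic input were expressed in both types. Of 16 acetylcholine receptor subunits, 7 were at 1 CPM or more. Those at least 2-fold higher were 2 (28.6%) in OHCs and 1 (14.3%) in IHCs, beside 15.3% and 13.4% of all genes. Chrna9, the alpha9 subunit, was at 128, 706 and 1515 CPM in the OHCs and at 177, 608 and 1396 CPM in the IHCs, with a log2 ratio of 0.07 (0.07 to 0.08), and the cells overlapped throughout. Chrna10, the alpha10 subunit, was at 77.2, 497 and 1333 CPM in the OHCs and at 2.34, 229 and 760 CPM in the IHCs, with a log2 ratio of 1.16 (1.15 to 1.18). Reads of Chrna10 and of the overlapping gene Art1 may be shared. Chrna1, the muscle-type alpha1 subunit, was at a summed 477 CPM in OHCs and 694 CPM in IHCs (log2 ratio -0.54).

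Other receptors were found in part of the cells. P2rx2, an ATP-gated cation channel gene, was at 0, 88.1 and 345 CPM in the OHCs and at 0, 0 and 75.4 CPM in the IHCs, with 33 of 43 OHCs and 4 of 38 IHCs at 10 CPM or more. The dopamine receptor gene Drd5 reached 10 CPM in 6 OHCs and 0 IHCs. Of 26 glutamate receptor subunits 9 were at 1 CPM or more, with a median log2 ratio of -3.96. Those at least 2-fold higher were 0 in OHCs and 6 (66.7%) in IHCs, beside 15.3% and 13.4% of all genes. The median was -2.42 without the highest cell of each group for each gene, -1.41 among cells without Xist, -2.12 among cells low in Gm15772 and -0.68 over 18 genes without the filter on low values. Their levels were low: Grin2d, an NMDA receptor subunit, was at 0.648 CPM in OHCs and 10.1 CPM in IHCs and reached 10 CPM in 11 IHCs and 1 OHC.

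Of 78 receptor tyrosine kinase and ligand genes 31 were at 1 CPM or more (median log2 ratio 0.25). At least 2-fold higher were 8 (25.8%) in OHCs and 10 (32.3%) in IHCs, beside 15.3% and 13.4% of all genes. Bdnf, the neurotrophin that supports the sensory neurons, was at 0.0950, 142 and 558 CPM in the OHCs and at 98.3, 331 and 578 CPM in the IHCs. Its log2 ratio was -0.97. Under 5 of the alternatives the ratio was between -1.01 and -1.22, and under the rest between -0.88 and -0.99. The median OHC lay within the range of the IHCs. Gdnf, a glial cell line-derived neurotrophic factor, reached 10 CPM in 13 IHCs and 0 OHCs, and Fgfr3, a receptor of fibroblast growth factors that Deiters and pillar cells also express, in 16 OHCs and 1 IHC.

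Of 58 TGF-beta family genes 32 were at 1 CPM or more (median log2 ratio -0.14). At least 2-fold higher were 7 (21.9%) in OHCs and 10 (31.2%) in IHCs, beside 15.3% and 13.4% of all genes. The ligands higher in OHCs included bone morphogenetic proteins: beside Bmp6, Bmp7 reached 10 CPM in 30 OHCs and 6 IHCs (log2 ratio 3.47) and Bmp3 in 34 OHCs and 15 IHCs (log2 ratio 2.45). The activin receptor gene Acvr1c did so in 12 OHCs and 0 IHCs. Inhba, the activin A subunit, was on the IHC side with 14 IHCs and 0 OHCs at 10 CPM, and Smad3, a signal transducer of activin and TGF-beta, with 23 IHCs and 2 OHCs. Smad3 was at a summed 1.44 CPM in OHCs and 36.4 CPM in IHCs (log2 ratio -4.66).

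Of 50 Wnt and Notch ligand and receptor genes 25 were at 1 CPM or more (median log2 ratio -0.08). Those at least 2-fold higher were 5 (20.0%) in OHCs and 7 (28.0%) in IHCs, beside 15.3% and 13.4% of all genes. Wnt4 was at 5.12 CPM in OHCs, from 6 cells at 10 CPM or more, and had no count in any IHC. Against a floor of 3 counts over the IHC group its sum was at least 595-fold higher in OHCs. That figure covers counting error only and is no bound for the cell type. A gene found in no IHC may still be held by up to 7.89% of IHCs. Fzd7, a Wnt receptor gene, reached 10 CPM in 11 IHCs and 0 OHCs. Mfng, which modifies Notch, was at 186 CPM in OHCs and 301 CPM in IHCs, a log2 ratio of -0.69 that was -1.04 among cells low in Gm15772 and 0.05 among cells with Xist.

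Potassium channel genes did not lean to either type as a group. Of 93 genes 35 were at 1 CPM or more (median log2 ratio -0.10, -0.85 to 0.77). At least 2-fold higher were 11 (31.4%) in OHCs and 11 (31.4%) in IHCs, above the 15.3% and 13.4% of all genes. Kcnn2, the SK2 channel that the alpha9/alpha10 receptor opens through calcium, was at 145 CPM in OHCs and 122 CPM in IHCs (log2 ratio 0.25). Kcnma1, the BK channel of mature IHCs, was at 25.8 CPM in OHCs and 72.2 CPM in IHCs (log2 ratio -1.48), with 23 OHCs and 31 IHCs at 10 CPM or more.

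Among the other potassium channel genes, Kcnk1, a leak channel gene of the K2P family, was at 0.243, 173 and 617 CPM in the OHCs and at 0, 70.8 and 343 CPM in the IHCs (log2 ratio 1.39). Kcnip3, a calcium-binding partner of Kv4 channels, reached 10 CPM in 7 OHCs and 33 IHCs (log2 ratio -3.02). Kcnb2, a delayed rectifier gene, did so in 0 OHCs and 17 IHCs. Kcna10, a Kv1 gene of hair cells, was the most abundant within 2-fold, at 761 CPM in OHCs and 986 CPM in IHCs.

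Of 25 voltage-gated calcium channel genes 13 were at 1 CPM or more (median log2 ratio 0.43). Those at least 2-fold higher were 6 (46.2%) in OHCs and 3 (23.1%) in IHCs, beside 15.3% and 13.4% of all genes. Cacna1d, the pore of the CaV1.3 channel that drives release in hair cells, was at 17.7, 210 and 534 CPM in the OHCs and at 0, 153 and 459 CPM in the IHCs, a log2 ratio of 0.11. The types differed more in accessory subunits. Cacnb2 was at 90.0 CPM in OHCs and 180 CPM in IHCs, just 2-fold apart, with a log2 ratio of -0.92 among cells low in Gm15772 and -0.95 among cells with Xist. Cacnb3 reached 10 CPM in 18 OHCs and 4 IHCs (log2 ratio 2.66). Cacng2, known as an AMPA receptor partner, did so in 28 OHCs and 0 IHCs and was at most 0.221 CPM in an IHC. Among sodium channel genes 8 of 14 were at 1 CPM or more. At least 2-fold higher were 4 (50.0%) in OHCs and 1 (12.5%) in IHCs, beside the same shares of all genes. The gene higher in IHCs was Scn3b, of the beta3 subunit. It was at 0, 0.111 and 107 CPM in the OHCs and at 0, 74.5 and 294 CPM in the IHCs.

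Of 47 chloride and water channel genes 24 were at 1 CPM or more (median log2 ratio 0.22, -0.65 to 1.44). At least 2-fold higher were 10 (41.7%) in OHCs and 5 (20.8%) in IHCs, beside 15.3% and 13.4% of all genes. Aqp11, an aquaporin of intracellular membranes, was at 12.3, 941 and 1973 CPM in the OHCs and at 0.128, 48.4 and 263 CPM in the IHCs. Its log2 ratio was 4.12, 4.86 among cells low in Gm15772 and 2.97 among cells high in it. Aqp5 reached 10 CPM in 14 OHCs and 0 IHCs. On the other side, Ano4, of the anoctamin family of scramblases and chloride channels, was at 0.640, 87.7 and 278 CPM in the IHCs and at most 0.379 CPM in an OHC. Ano1, a calcium-activated chloride channel gene that is also on the supporting cell list, reached 10 CPM in 6 IHCs and 0 OHCs. Trpm3, a steroid-gated cation channel gene, was at 0.818, 63.2 and 269 CPM in the IHCs and at 0, 0.113 and 155 CPM in the OHCs (log2 ratio -2.67), and Piezo2, a mechanically gated channel gene, reached 10 CPM in 16 OHCs and 3 IHCs.

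Of 14 genes of the mechanotransduction complex and tip link 13 were at 1 CPM or more. At least 2-fold higher were 1 (7.69%) in OHCs and 0 in IHCs, beside 15.3% and 13.4% of all genes. The list's median log2 ratio was 0.31 (-0.41 to 0.52). Tmc1, the pore of the mature channel, was at 16.2, 557 and 1264 CPM in the OHCs and at 88.4, 338 and 884 CPM in the IHCs (log2 ratio 0.52). Cib2, which binds TMC proteins, was at 3567 CPM in OHCs and 4317 CPM in IHCs (log2 ratio -0.28). Pcdh15, of the tip link, was at 84.8 and 59.8 CPM (log2 ratio 0.50), a ratio of 1.28 in the high Gm15772 set.

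Among the calcium buffers Calb1 and Calb2 were high in both types, while Ocm was high in OHCs and Pvalb higher in IHCs. Of 28 EF-hand buffer and sensor genes 24 were at 1 CPM or more. Those at least 2-fold higher were 5 (20.8%) in OHCs and 5 (20.8%) in IHCs, beside 15.3% and 13.4% of all genes. The summed level of the list was 46279 CPM in OHCs and 51388 CPM in IHCs. Calb1, which encodes calbindin, was at 1257, 10690 and 16034 CPM in the OHCs and at 3005, 6325 and 12136 CPM in the IHCs (log2 ratio 0.80). Calb2, which encodes calretinin, was at 83.2, 2678 and 5356 CPM in the OHCs and at 880, 5592 and 9462 CPM in the IHCs (log2 ratio -0.87). Pvalb, which encodes parvalbumin alpha, a relative of oncomodulin, was at 346, 1130 and 2324 CPM in the OHCs and at 2035, 3431 and 5958 CPM in the IHCs. An OHC exceeded an IHC in Pvalb in 0.0612% of pairs, and the log2 ratio of -1.69 stayed between -1.77 and -1.64 in the 4 sets of cells.

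Per kilobase of exon the order of the buffers differed between the types. In OHCs Ocm was at 6755 CPM per kb, Calb1 at 2125, Calb2 at 1684 and Pvalb at 1050. In IHCs Pvalb was at 3381 CPM per kb, Calb2 at 3074, Calb1 at 1217 and Ocm at 46.7. Within the ranges over cells given above, neighbours in each order overlapped, except for Ocm below Calb1 in the IHCs. Cabp2, a calmodulin-like sensor that slows the inactivation of hair cell calcium channels, was at 1171, 1924 and 3165 CPM in the IHCs and at 0.135, 107 and 725 CPM in the OHCs. It was therefore present in 38 of 43 OHCs at 10 CPM or more and still without overlap (log2 ratio -3.74, -3.75 to -3.73).

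**Figure D3:**
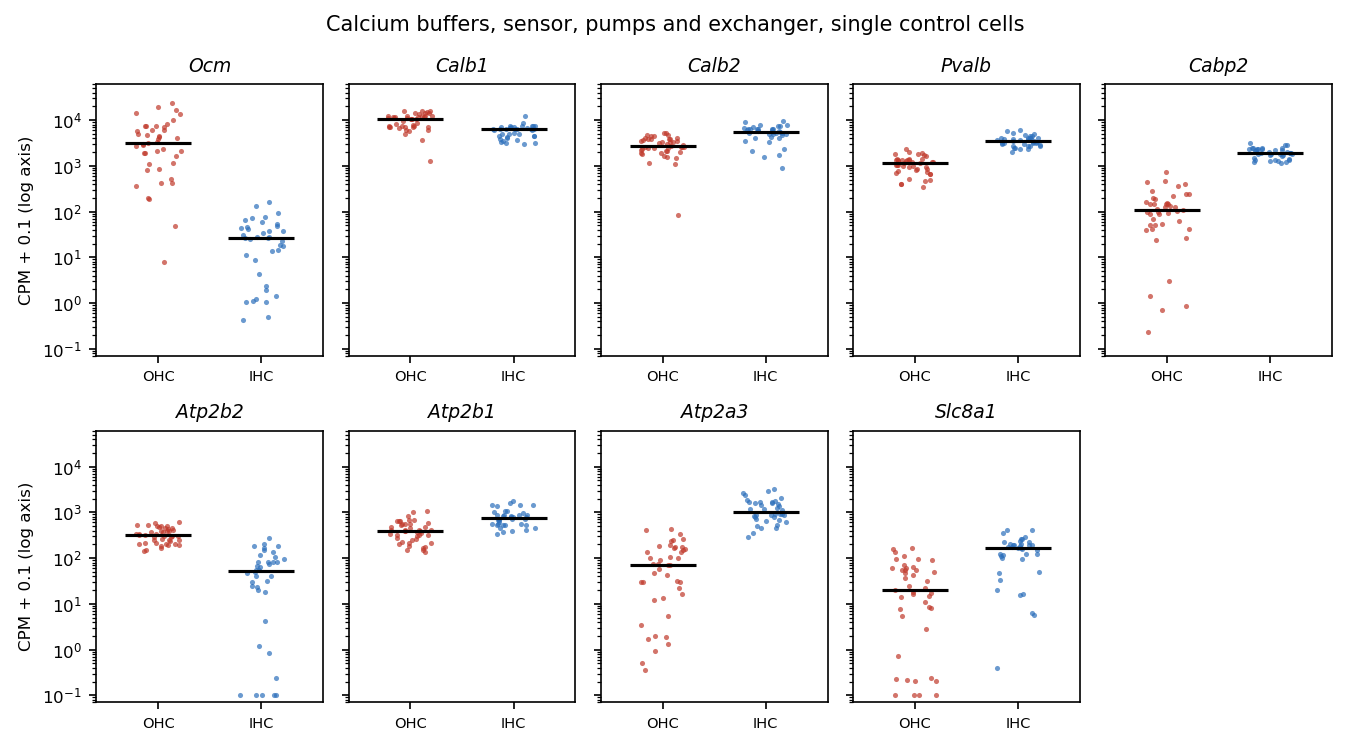
Level of calcium buffers, a sensor and calcium pumps in every control cell, on a log axis of CPM + 0.1. Each point is 1 cell, the bar is the median; Ocm and Atp2b2 are higher in outer cells, Pvalb, Calb2, Cabp2, Atp2b1 and Atp2a3 in inner cells.

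Of 34 calcium pump, exchanger and store genes 30 were at 1 CPM or more, 5 (16.7%) at least 2-fold higher in OHCs and 6 (20.0%) in IHCs, beside 15.3% and 13.4% of all genes, and 19 were within 2-fold. Atp2b2, the plasma membrane pump PMCA2 of hair bundles, was at 143, 316 and 617 CPM in the OHCs and at 0, 52.7 and 278 CPM in the IHCs (log2 ratio 2.33). The related pump gene Atp2b1 was at 139, 397 and 1054 CPM in the OHCs and at 332, 747 and 1782 CPM in the IHCs. Its sums of 412 and 822 CPM were at the edge of 2-fold, and the log2 ratio was -0.91 with the median of single cells and -0.98 among cells high in Gm15772. OHCs were the higher in 97.9% of pairs for Atp2b2 and in 15.5% for Atp2b1. Atp2a3, the pump SERCA3 of the endoplasmic reticulum, was at 0.255, 70.8 and 430 CPM in the OHCs and at 295, 1013 and 3249 CPM in the IHCs (log2 ratio -3.60). The related gene Atp2a2 was at 103 CPM in OHCs and 117 CPM in IHCs. The sodium-calcium exchanger gene Slc8a1 was at 0, 19.5 and 165 CPM in the OHCs and at 0.297, 166 and 421 CPM in the IHCs (log2 ratio -1.94). Ryr1, a calcium release channel gene, reached 10 CPM in 22 OHCs and 1 IHC.

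Of 43 genes of the ribbon synapse and exocytosis 37 were at 1 CPM or more (median log2 ratio -0.17, -0.72 to 0.10). Those at least 2-fold higher were 4 (10.8%) in OHCs and 11 (29.7%) in IHCs, beside 15.3% and 13.4% of all genes. Otof, the calcium sensor of release in IHCs, was at 168, 941 and 2954 CPM in the OHCs and at 1156, 2370 and 5465 CPM in the IHCs. The log2 ratio of Otof was -1.15, and -0.92 among cells high in Gm15772. Rims2, a scaffold of the active zone, was at 0, 19.2 and 268 CPM in the OHCs and at 77.9, 358 and 803 CPM in the IHCs (log2 ratio -2.97). The vesicle genes Syt2 and Dnajc5b were also on the IHC side: Syt2, a calcium sensor, reached 10 CPM in 3 OHCs and 27 IHCs, and Dnajc5b, a cysteine-string protein, in 0 and 34. The ribbon protein gene Ctbp2 (log2 ratio -0.48), the vesicle GTPase gene Rab3a (0.38) and the fusion protein gene Snap25 (0.00) were within 2-fold. Slc17a6, the vesicular glutamate transporter VGLUT2, was found in part of the OHCs: 9 of 43 reached 10 CPM, up to 287 CPM, and no IHC was above 0.168 CPM.

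Among the adhesion and guidance lists, that of Eph, semaphorin and Robo genes had the largest share higher in OHCs. Of 74 genes 50 were at 1 CPM or more, with a median log2 ratio of 0.51 (-0.24 to 1.31) beside 0.04 over all genes. At least 2-fold higher were 20 (40.0%) in OHCs and 8 (16.0%) in IHCs, beside 15.3% and 13.4% of all genes. Robo2, a receptor of Slit ligands, was at 0, 38.1 and 437 CPM in the OHCs and at most 0.242 CPM in an IHC, with 31 OHCs at 10 CPM or more. Robo1 was on the same side with 14 OHCs and 1 IHC (log2 ratio 3.51). The receptor gene Epha7 was on the IHC side, with 17 IHCs and 0 OHCs at 10 CPM, and so was Plxnd1, a semaphorin receptor gene, with 15 and 0. Nrp2, another semaphorin receptor gene, was at 134 CPM in OHCs and 97.2 CPM in IHCs.

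Cadherins 2-fold apart were found on both sides. Of 117 cadherins and protocadherins 33 were at 1 CPM or more (median log2 ratio -0.42). Those at least 2-fold higher were 10 (30.3%) in OHCs and 13 (39.4%) in IHCs, beside 15.3% and 13.4% of all genes. The 13 on the IHC side, with log2 ratios down to -10.75, are not named. The cadherins named below as 2-fold apart are all on the OHC side. Cdh1, epithelial cadherin, was at 0, 15.0 and 376 CPM in the OHCs and at most 11.1 CPM in an IHC (log2 ratio 6.53), and the ratio was 10.21 once the top cell per type was left out. Cdh13 reached 10 CPM in 14 OHCs and 0 IHCs and Cdh22 in 11 and 0. Cdh2, neural cadherin, was at 8.22 CPM in OHCs and 14.2 CPM in IHCs (log2 ratio -0.78). Cdh23, of the tip link, was at 234 and 189 CPM. Alcam, an immunoglobulin-type adhesion gene, reached 10 CPM in 3 OHCs and 27 IHCs, and Tenm4, a teneurin, in 41 OHCs and 16 IHCs. Among integrin, laminin and dystroglycan genes 20 of 49 were at 1 CPM or more. At least 2-fold higher were 5 (25.0%) in OHCs and 3 (15.0%) in IHCs, beside the same shares of all genes. Utrn, which encodes the dystrophin relative utrophin, was at 0, 0.540 and 115 CPM in the OHCs and at 0, 65.1 and 193 CPM in the IHCs. Of 40 tight junction genes 24 were at 1 CPM or more, 3 (12.5%) at least 2-fold higher in OHCs and 4 (16.7%) in IHCs, near the shares over all genes. Cldn9 was at 1574 CPM in OHCs and 802 CPM in IHCs, and the polarity gene Pard3b reached 10 CPM in 35 OHCs and 9 IHCs.

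Hair bundle genes were mostly shared. Of 50 bundle genes 47 were at 1 CPM or more, and the median log2 ratio was 0.05 (-0.08 to 0.35). At least 2-fold higher were 3 (6.38%) in OHCs and 5 (10.6%) in IHCs, beside 15.3% and 13.4% of all genes. Strc, which encodes the stereocilin of the links that tie OHC bundles to the tectorial membrane, was at 25.0, 177 and 433 CPM in the OHCs and at 0, 42.0 and 108 CPM in the IHCs (log2 ratio 2.15, and 2.12 to 2.25 in the 4 sets). Xirp2, an actin-binding protein gene, was at 0, 121 and 678 CPM in the OHCs and at 63.7, 595 and 959 CPM in the IHCs (log2 ratio -1.91). The actin bundler gene Fscn2 was also on the IHC side, at 152 CPM in OHCs and 398 CPM in IHCs (log2 ratio -1.39). Myo15 and Espn were equal within 0.05 in log2 ratio. Of the spectrin, ankyrin and band 4.1 genes 17 of 26 were at 1 CPM or more. Those at least 2-fold higher were 5 (29.4%) in OHCs and 0 in IHCs, beside the same shares of all genes. Sptb, a beta-spectrin, was at 1.71, 336 and 684 CPM in the OHCs and at 1.53, 128 and 427 CPM in the IHCs. Lmod3, an actin nucleator of muscle, was at 0.935, 1246 and 3236 CPM in the OHCs and at 57.8, 476 and 1920 CPM in the IHCs.

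Respiratory chain genes did not separate the types. Of 82 nuclear-encoded respiratory chain and ATP synthase genes 81 were at 1 CPM or more and 0 were 2-fold apart either way; their median log2 ratio was 0.05 (0.00 to 0.12). All 13 mitochondrially encoded protein genes were lower in OHCs, by a median log2 ratio of -0.31 (-0.38 to -0.26). The share of counts in mitochondrially encoded genes given earlier includes these same genes, so its same direction is not a separate result. Of 36 genes of the tricarboxylic acid cycle and pyruvate entry 35 were at 1 CPM or more, 4 (11.4%) at least 2-fold higher in OHCs and 0 in IHCs, with 31 within 2-fold. Of 30 glycolysis and lactate genes 27 were at 1 CPM or more, with a median log2 ratio of -0.01. At least 2-fold higher were 4 (14.8%) in OHCs and 6 (22.2%) in IHCs. Both lists stand beside 15.3% and 13.4% of all genes. Single members of these lists stood out. Mpc1, a subunit of the mitochondrial pyruvate carrier, was at 36.0, 93.6 and 212 CPM in the OHCs and at 0, 7.95 and 37.8 CPM in the IHCs (log2 ratio 3.24). The OHC was the higher in 99.9% of pairs. Its pseudogene Mpc1-ps gave 106 CPM in OHCs and 10.9 CPM in IHCs, and reads of the 2 copies cannot be told apart with certainty. The partner subunit gene Mpc2 was at 212 CPM in OHCs and 157 CPM in IHCs. Ldhb, the lactate dehydrogenase subunit of oxidative tissue, was at 0.623, 1481 and 2736 CPM in the OHCs and at 101, 492 and 1048 CPM in the IHCs (log2 ratio 1.46).

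Other metabolic genes higher in OHCs were Acsl1, which activates fatty acids, and the carbonic anhydrase genes Car2 and Car12. Acsl1 was at 131 CPM in OHCs and 22.9 CPM in IHCs (log2 ratio 2.51). Car2 was at 0, 207 and 3438 CPM in the OHCs and at 0, 29.1 and 339 CPM in the IHCs, and Car12 reached 10 CPM in 34 OHCs and 10 IHCs. Cholesterol synthesis genes held 9 of 26 (34.6%) at least 2-fold higher in OHCs and 2 (7.69%) in IHCs, beside 15.3% and 13.4% of all genes. The list's median log2 ratio was 0.41 (-0.10 to 1.12), and 15 genes were within 2-fold. Among those higher in OHCs was the kinase gene Mvk, at 65.1 CPM in OHCs and 17.2 CPM in IHCs. Of 16 serine and one-carbon genes 13 were at 1 CPM or more. At least 2-fold higher were 1 (7.69%) in OHCs and 3 (23.1%) in IHCs, beside the same shares of all genes. Phgdh, the first enzyme of serine synthesis, was at 0.366, 558 and 1696 CPM in the OHCs and at 964, 1691 and 3586 CPM in the IHCs, a log2 ratio of -1.47 that was -0.96 among cells high in Gm15772. Of 39 antioxidant and glutathione genes 38 were at 1 CPM or more, 6 (15.8%) at least 2-fold higher in OHCs and 4 (10.5%) in IHCs, near the shares over all genes (median log2 ratio 0.08). Gpx2, a glutathione peroxidase, was at 0, 113 and 1053 CPM in the OHCs and at 0.235, 640 and 2725 CPM in the IHCs (log2 ratio -2.24).

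Transcription factors included genes at similar levels in both types and genes far apart. Of 14 hair cell identity genes all 14 were at 1 CPM or more, 0 at least 2-fold higher in OHCs and 3 (21.4%) in IHCs, beside 15.3% and 13.4% of all genes. Pou4f3 was at 626 CPM in OHCs and 558 CPM in IHCs, and Gata3 at 752 and 819 CPM. Gfi1, a repressor that hair cells need to survive, was at 15.9, 169 and 531 CPM in the OHCs and at 83.6, 383 and 1013 CPM in the IHCs. Its log2 ratio was -1.04, and -0.88 to -1.28 in the 4 sets. Atoh1 itself was at 0, 7.24 and 233 CPM in the OHCs and at 0, 70.9 and 315 CPM in the IHCs; its log2 ratio of -1.56 was -0.68 among cells with Xist.

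Factors higher in OHCs included zinc-finger, homeodomain and basic helix-loop-helix genes. Ikzf2, a zinc-finger factor known to drive OHC genes, was at 0, 163 and 419 CPM in the OHCs and at 0, 0.131 and 60.9 CPM in the IHCs (log2 ratio 5.24). Bcl11a reached 10 CPM in 31 OHCs and 1 IHC, and Bcl11b in 10 and 0. Insm1, which acts early in the choice of OHC fate, was at 3.81 CPM in OHCs, where 6 of 43 reached 10 CPM. It had no count in any IHC, and its sum was at least 443-fold higher in OHCs against the same floor. As for Wnt4, that figure covers counting error only and is no bound for the cell type. Six2 was at 0.779, 240 and 1486 CPM in the OHCs and at 0, 1.34 and 78.1 CPM in the IHCs (log2 ratio 4.96). Bhlhe40, a repressor of the clock and of stress responses, was at 0, 315 and 1921 CPM in the OHCs and at 0, 0.563 and 57.9 CPM in the IHCs (log2 ratio 5.73). Emx1, a homeodomain gene best known from the cortex, reached 10 CPM in 26 OHCs and was at most 0.256 CPM in an IHC. Mef2a was at 169 CPM in OHCs and 43.5 CPM in IHCs.

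Other factors were higher in IHCs beside Tbx2, Gfi1 and Atoh1. Npas3 reached 10 CPM in 8 OHCs and 20 IHCs (log2 ratio -2.28), and Gli2, of the Hedgehog pathway, in 0 and 10. Nr2f2, which was listed as linked to IHCs, was instead at 9.14, 89.1 and 210 CPM in the OHCs and at 0, 11.5 and 142 CPM in the IHCs (log2 ratio 1.72). The immediate early gene Fos was at 29.9 CPM in OHCs and 142 CPM in IHCs, a log2 ratio of -2.25 that was -0.96 among cells high in Gm15772. The summed level of 17 immediate early and dissociation genes was 53.4 to 4537 CPM in OHCs (median 491) and 357 to 3797 CPM in IHCs (median 1125), and its part in the other differences was not tested. By list, and beside 15.3% and 13.4% of all genes, zinc-finger factors had 16 of 63 (25.4%) at least 2-fold higher in OHCs and 11 (17.5%) in IHCs, basic helix-loop-helix and Id factors 4 and 8 of 30, homeodomain factors 6 and 6 of 46, and nuclear receptors 7 and 4 of 29.

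**Figure D4:**
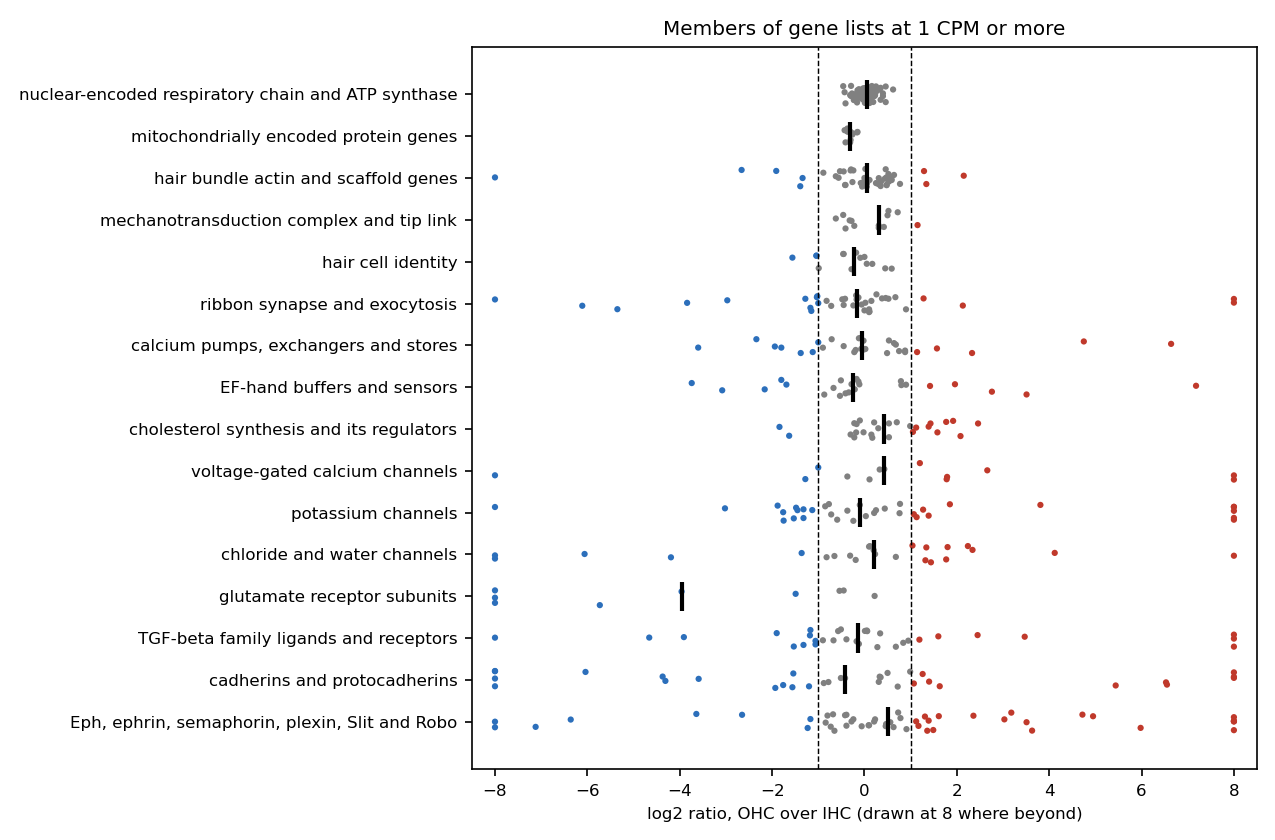
Log2 ratio of outer over inner hair cells for each gene at 1 CPM or more in 16 of the gene lists; each point is 1 gene and the black bar is the median of the list. Dashed lines mark 2-fold, and ratios beyond 8 either way are drawn at 8. Nuclear-encoded respiratory chain genes stay between -0.46 and 0.62. Bundle genes have a median of 0.05 but run from -8.67 to 2.15. The guidance list and those of potassium, calcium, and chloride and water channels reach both edges. So do the lists of the TGF-beta family, of cadherins and protocadherins, and of the ribbon synapse and exocytosis.

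Some genes higher in IHCs split the OHCs into cells with and without them, and 4 of them were chosen for description after their values were seen. Rprm, a p53 target gene, was at 1153, 2529 and 4418 CPM in the IHCs and at 0, 2.51 and 4220 CPM in the OHCs, and 17 of 43 OHCs reached 10 CPM. By set, Rprm reached 10 CPM in 4 of 25 OHCs low in Gm15772 and in 13 of 18 OHCs high in it, 6 of the 7 without Xist and 7 of the 11 with Xist. The IHCs did not split: all 23 low and all 15 high IHCs were above 10 CPM. The log2 ratio of Rprm was -6.63 among low cells and -1.62 among high cells. Parp1, a DNA repair enzyme gene, was alike: 6 of 25 low OHCs and 13 of 18 high OHCs reached 10 CPM, and the log2 ratio was -5.65 and -1.48. Psat1, the next enzyme of serine synthesis after Phgdh, had 2 of 25 and 10 of 18 OHCs at 10 CPM and log2 ratios of -5.85 and -0.91. Ezr, the membrane-actin linker ezrin of the bundle list, had 3 of 25 and 10 of 18, with -4.77 and -1.47.

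**Figure D5:**
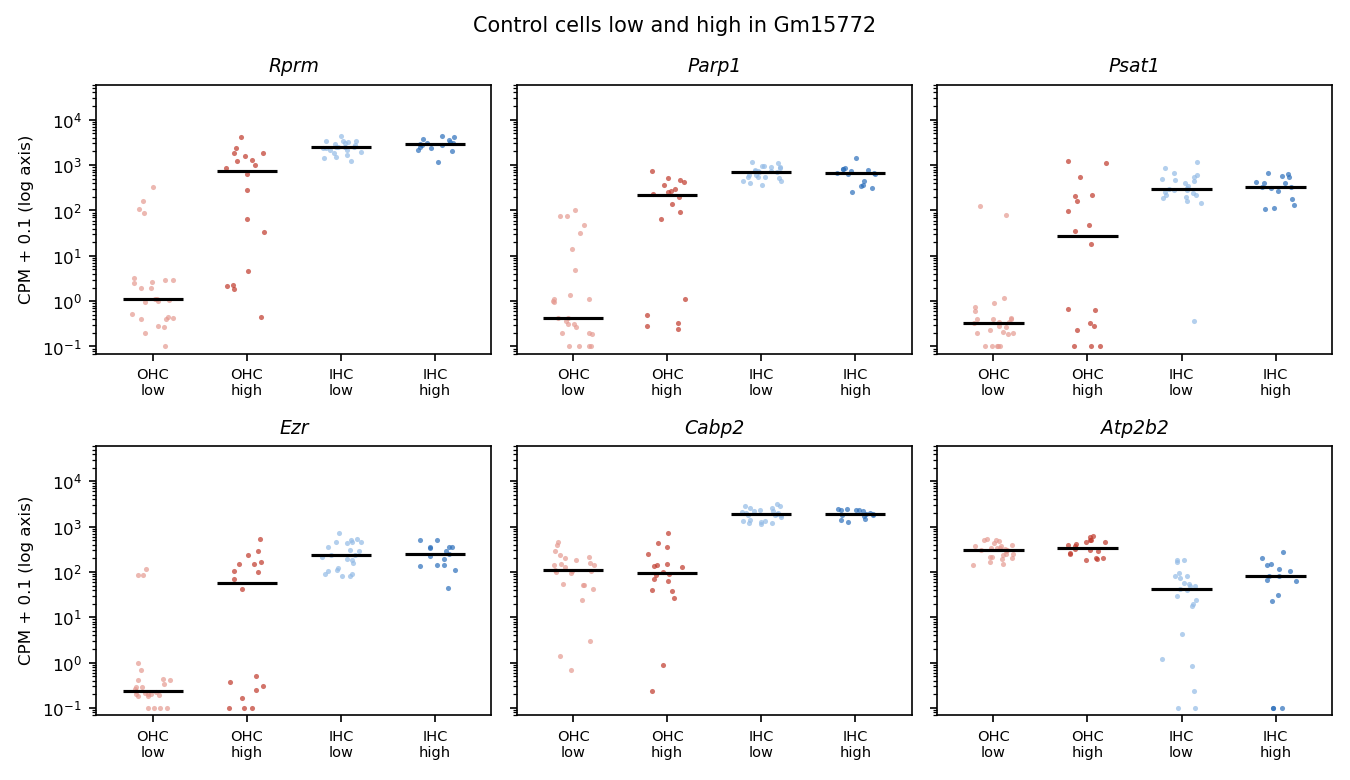
Level in every control cell of Rprm, Parp1, Psat1 and Ezr, and of Cabp2 and Atp2b2 for comparison, with outer and inner cells each divided into those low and high in Gm15772, on a log axis of CPM + 0.1. Outer cells high in Gm15772 hold the first 4 genes more often than outer cells low in it, while 37 or all 38 of the inner cells hold each of them at 10 CPM or more.

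Across all genes the same lean was present. Of the 1752 genes at least 2-fold higher in IHCs that had a ratio between the OHC sets, 790 (45.1%) were at least 2-fold higher in the OHCs high in Gm15772 and 335 (19.1%) in the OHCs low in it. Between the IHC sets the counts for the genes higher in IHCs were 401 (20.7%) and 424 (21.9%). Genes at least 2-fold higher in OHCs also leaned to the high set between the IHC sets. There 627 (31.4%) of 1997 with a ratio were at least 2-fold higher in the high set and 471 (23.6%) in the low set. Over all genes the shares were 18.9% and 12.7% between the OHC sets, and 14.8% and 13.7% between the IHC sets. Because the genes were picked for a low sum in 1 type, the counts are a description. Ocm had a median of 4301 CPM in the low OHCs and 947 CPM in the high OHCs, whereas Slc26a5 had 344 and 326 CPM. Of the 2204 genes at least 2-fold higher in OHCs over all cells, 1005 (45.6%) were so in each of the 4 sets and 413 went the opposite way in at least 1 set. Of the 1934 genes higher in IHCs, 868 (44.9%) were so in each set and 385 went the opposite way in at least 1. Since no label names an animal, litter, sex or day, source and set cannot be told apart. Among the OHCs the low and high sets also follow the order of the title numbers.

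The mutant cells, 56 labelled OHC and 26 labelled IHC, were compared in the same way, and share no cell with the controls. All 15 genes with the largest control ratio toward OHCs were on the same side there, with a median log2 ratio of 7.67 beside 9.20 in controls. Of the 15 genes toward IHCs 14 had a ratio, and 12 were on the same side, with a median of -5.71 beside -9.81. The exceptions were Dnajc5b, at 1.87 CPM in mutant OHCs and 0.938 CPM in mutant IHCs, and Abhd12b, at 236 and 217 CPM. Ang4 had no count in mutant cells of either type. The levels themselves differed: Slc26a5 was at 376 CPM in control OHCs and 27.5 CPM in mutant OHCs, Ocm at 4951 and 18.6 CPM, and Efna5 at 153 and 475 CPM. Of all genes at least 2-fold higher in control OHCs, 1476 of 2110 with a mutant ratio were on the same side, and of those higher in control IHCs 1252 of 1850. At least 2-fold apart on the same side were 900 and 726, and on the opposite side 255 and 308. The median log2 ratios were 0.71 beside 1.83 in controls, and -0.58 beside -1.88. How all genes divide between the sides in mutants was not counted. With no animal named in either genotype, these values are set side by side without a test.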

How the data were processed

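Each of the 81 control cells had 1 full-length single-cell library, and the deposited table held whole-number counts per gene and cell. Reads were handled with HISAT2 2.2.1, SAMtools and featureCounts 2.0.1 on mm10, per the submitters' processing notes. The annotation release and strand setting behind the authors' counts are not given in the sources used here, so reads of overlapping genes may be shared. Gene names, lengths and positions came from the GENCODE vM21 annotation of GRCm38, which matched 55034 of 55291 identifiers.

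Counts were summed over the cells of each type and divided by the group's total count to give CPM. The ratio of sums was given an exact binomial 95% interval, and levels and shares exact intervals. The limit printed for a share of 0 cells is instead 3 divided by the number of cells. All of these cover counting error only, since the reads carry no molecular identifiers. Genes with a mean of 1 CPM or more over the 2 types entered counts and list medians, whose intervals are from order statistics. A sum of 0 was set to a floor of 3 counts over the group. Cells were not treated as replicates, no animal is named in the labels, and no test was run. No doublet caller was used, as each cell was picked by hand, and no 2 control cells had identical counts. Calculations used Python 3.11.15, numpy 2.4.6, pandas 2.3.3 and scipy 1.17.1. Scaling factors for alternatives came from edgeR 4.0.16 (TMM) and DESeq2 1.42.0 in R 4.3.3. The interval and the calls were tried on simulated counts with counting error only. Such counts hold no spread between cells or animals, so they say nothing about its effect.

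Members and gene lists were chosen with earlier results of these data known. Genes to be named came from a rule: the 4 label genes, the 15 largest ratios each way and members of each list. In each list these were up to 4 genes each way that were 2-fold apart at 5 CPM or more. Up to 2 of the highest genes within 2-fold were added. The rule gave 382 genes. The text names only part of them, and the rule does not set which part. Outside this rule, Calb1, Cdh2, Ctbp2, Espn, Insm1, Kcnma1, Kcnn2, Mpc2, Otof, Pcdh15, Rims2, Robo1, Tmc1 and Wnt4 were named for known biology or a sum of 0, Mpc1-ps as a copy of Mpc1, and Fam241a, Rprm, Parp1 and Gm15772 after their values were seen. The alternatives were other scalings, means or medians of single-cell CPM, thinned cells, other filters, leaving out the highest cell or the 2 cells that lacked a label gene, and the sets of cells by Xist and Gm15772. The division of the cells high in Gm15772 by Xist was added after seeing the data.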

Additional observations from a re-analysis of the deposited data

How the results depend on the processing

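Over 14 alternatives, none of the 137 genes named in the text as 2-fold apart reversed its direction. The naming rule gave 382 genes, 277 of them 2-fold apart, and the text names only part of these. Some that it leaves out did reverse. Sv2b had a log2 ratio of -6.11 over all cells and 1.10 among cells high in Gm15772. Wnt5a had 3.12 over all cells and -1.07 among cells with Xist. The 2204 genes at least 2-fold higher in OHCs became 1166 with the median of single-cell CPM, 817 with a mean of 10 CPM or more and 5578 without a filter on low values. The 1934 genes higher in IHCs became 598 and 5314 under the same 2 filters, which changes how many genes are counted. With the median of single-cell CPM, which leaves fewer genes with a ratio, list medians became -0.88 for Wnt and Notch genes, -1.49 for potassium channels, -0.90 for calcium pumps and stores, -0.78 for the ribbon synapse and 1.78 for Eph, semaphorin and Robo genes. The median of nuclear-encoded respiratory chain genes was -0.02 among cells with Xist. The median of mitochondrially encoded genes was -0.59 among cells with Xist, -0.24 among cells low in Gm15772 and -0.49 among cells high in it, and the cause was not tested. Of 137 named genes, 57 moved by more than 1.5-fold among cells high in Gm15772, 39 among those low in it, 17 among cells without Xist, 32 without the highest cell of each type, 11 in thinned cells and 4 without the 2 OHCs that lacked a label gene. With the median of single-cell CPM 64 of 117 did so, and among cells with Xist 57 of 136. At most 4 genes under 1 alternative were no longer 2-fold apart. No paired analysis was possible because no label links an OHC to an IHC. The numbers in the titles follow the Gm15772 sets among the OHCs but name no animal or batch. Depth limits genes found in few cells, and without named animals the spread between animals is unknown.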
